A study of Mus musculus with 9 samples.

Results

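The genes described here are 10 regulators of G protein signalling (RGS genes), Rgs1, Rgs2, Rgs3, Rgs8, Rgs10, Rgs12, Rgs14, Rgs16, Rgs18 and Rgs19, chosen by symbol from the 50600 genes of the deposited tables. The cells were RAW-Blue, an engineered line of mouse macrophages with a built-in inflammation reporter, kept in medium with Zeocin and Normocin in every group, and their RNA was sequenced. The groups compared were untreated cells (None, 3 libraries) and cells stimulated for 24 hours with 1 µg/ml of lipopolysaccharide, a bacterial cell wall component (LPS, 3 libraries). A further group of 3 samples, LPS-PjELNs, received plant vesicles for 16 hours before LPS and was not analysed here. All samples come from 1 cell line, and nothing in the labels says that replicates were separate cultures, and p-values then reflect only how these libraries vary, which may be technical.

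A G protein-coupled receptor switches its G protein on by loading GTP onto the alpha subunit, and the signal ends when the alpha subunit hydrolyses that GTP. RGS proteins bind the active alpha subunit through a shared RGS domain and speed up hydrolysis, so they shorten signals from receptors for chemokines, lipids and hormones. Most act on the Gi family, some also on the Gq family. By sequence the proteins fall into subfamilies. Rgs1, Rgs2, Rgs3, Rgs8, Rgs16 and Rgs18 belong to R4, Rgs10, Rgs12 and Rgs14 to R12, and Rgs19 to RZ.

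Libraries held 14650843 to 17665200 counts. Of the 10 macrophage markers, 9 were well enough counted to be tested, with a summed level of 11449 to 13154 TPM in None and 19227 to 21427 TPM in LPS, and Mertk had 0 counts in None and 2 in LPS. Lyz2 made up most of that sum (a mean of 9714 TPM in None and 16563 TPM in LPS). Of the 9 markers 5 rose, Adgre1, Cd68 and Spi1 were not called, and Csf1r, the receptor for a macrophage growth factor, fell from a mean of 527 to 177 TPM (log2 fold change -1.33). The 10 markers of other cell types summed to 0.19 to 0.64 TPM in None and 0.22 to 0.44 TPM in LPS, and Cd3e, Ms4a1, Ncr1, Epcam and Mpo among them had 0 counts in all libraries. In bulk RNA, fewer cells with a transcript and less transcript per cell cannot be told apart.

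After LPS the cells held far more Rgs16 and, at a low level, more Rgs8, and far less Rgs2. Rgs10, Rgs14 and Rgs19 fell by smaller factors, and so did the weakly expressed Rgs12. Rgs1 and Rgs3 were not called, and Rgs18 was not detected. Of the 10 genes 9 passed the filter on low counts, and among these 2 rose and 5 fell at an adjusted p under 0.05 (edgeR quasi-likelihood test, adjusted over all genes tested). Over all genes tested 69.1% were called, 34.0% higher and 35.1% lower, so the share of RGS genes called was near that of all genes. With scaling by library totals alone 2679 genes were called higher and 6076 lower instead of 4052 and 4180, while the RGS genes stayed at 2 higher and 5 lower. The size of the changes was at least 2-fold in 5 of the 9, against 22.9% of all genes tested, with 2 higher (11.1% of all genes tested) and 3 lower (11.8%). The median log2 fold change was -0.36 for the 9 genes and -0.03 for all genes tested. Rgs16 and Rgs8 passed the filter only through LPS and Rgs12 only through None. Both rises and 3 of the 7 calls thus rest on genes that had to differ to be tested. The same 3 genes are among the 5 that changed at least 2-fold. These counts are therefore descriptions. The 2 groups did not overlap in CPM (counts scaled to library size) in 7 of the 9 tested genes (77.8%), beside 73.6% of all genes tested.

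**Figure D1:**
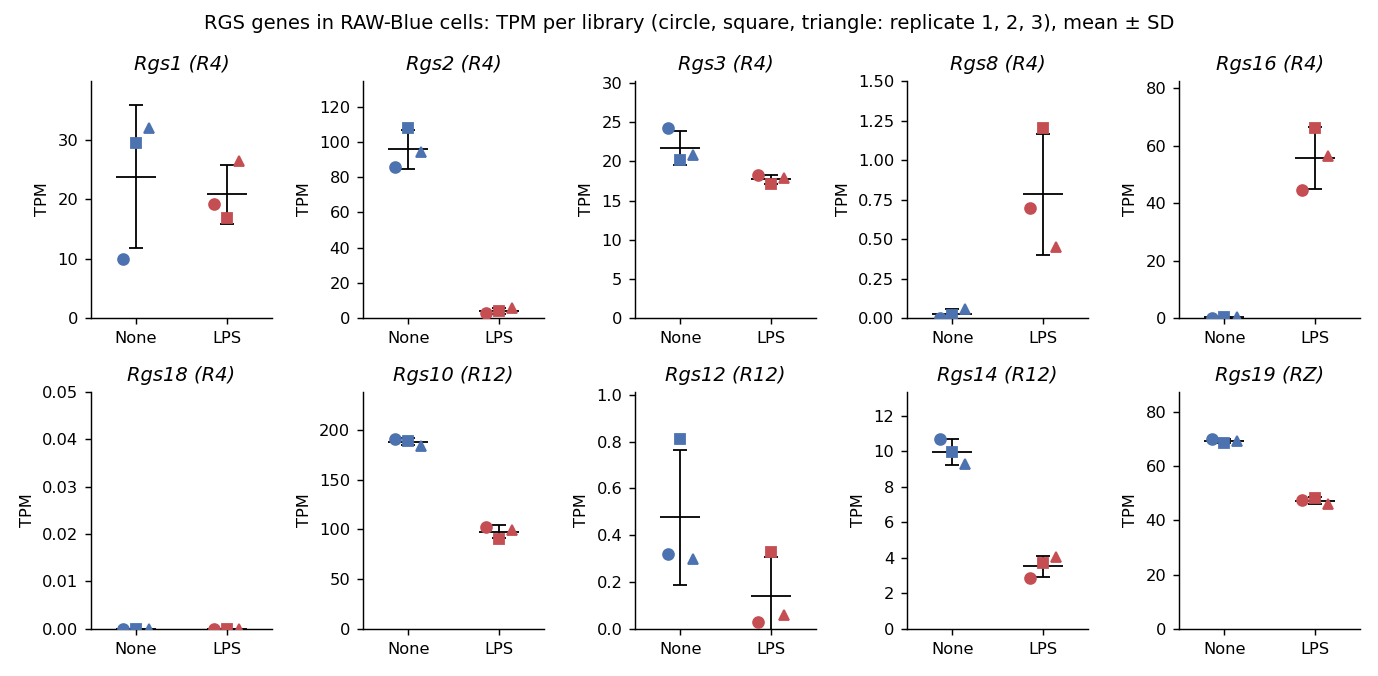
Level of each RGS gene in TPM (a scale that corrects for transcript length and sums to the same total in each library) in the 3 None and 3 LPS libraries, each panel on its own linear axis. Points are libraries, and bars are the mean and SD, with the lower bar of Rgs12 in LPS ending at the axis. Rgs16 goes from at most 0.31 TPM to between 44.6 and 66.1 TPM, and Rgs2 from between 85.8 and 108 TPM to at most 5.56 TPM.

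Rgs16 and Rgs2 carried the largest changes in the well-counted range, in opposite directions, and both are small R4 proteins that consist of little more than the RGS domain. Their promoters are shown because the pair moved furthest apart. The letters are the 250 bases before the RefSeq start of each gene (GRCm38.p6), Rgs2 at chr1:144004150-144004399 on the minus strand and Rgs16 at chr1:153740103-153740352 on the plus strand. Capitals mark CRE half-sites (TGACG, bound by factors of the cAMP pathway) and CCAAT boxes (CCAAT), on either strand.
Rgs2: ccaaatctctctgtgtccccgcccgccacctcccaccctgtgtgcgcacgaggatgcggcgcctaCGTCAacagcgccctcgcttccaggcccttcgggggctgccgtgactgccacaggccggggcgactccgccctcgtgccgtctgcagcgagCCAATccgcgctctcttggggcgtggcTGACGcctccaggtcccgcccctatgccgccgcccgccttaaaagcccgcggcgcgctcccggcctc
Rgs16: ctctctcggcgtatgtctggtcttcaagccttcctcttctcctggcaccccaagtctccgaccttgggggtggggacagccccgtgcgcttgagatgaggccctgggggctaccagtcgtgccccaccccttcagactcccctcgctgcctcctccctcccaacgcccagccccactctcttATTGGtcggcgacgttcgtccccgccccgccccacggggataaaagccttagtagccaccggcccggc
The Rgs2 window holds 2 CRE half-sites, which start 185 and 67 bases before the gene start, and a CCAAT box 94 bases before it. The Rgs16 window holds a CCAAT box 68 bases before the start and no match to TGACG. GC boxes (GGGCGG) match at 4 places in the Rgs2 window and at 2 in the Rgs16 window and are left in lower case. Of 32851 windows of the same length over all genes, 17.8% hold TGACG, 33.8% hold CCAAT and 32.7% hold GGGCGG on either strand. Windows were found for 7 of the 10 RGS genes, 13 in all, of which 3 hold TGACG, 4 hold CCAAT and 8 hold GGGCGG. The NF-kappaB consensus, present in 7.25% of all windows, has no match in the 13. These are letter matches in a short window and no evidence of binding or of its absence.

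Rgs16 (chromosome 1, 153740348 to 153745468, GRCm38) limits Gi and Gq signals and is known in lymphocytes and liver. Its level was 0.326, 0.517 and 0.465 CPM in None replicates 1 to 3 and 87.9, 127 and 116 CPM in the LPS replicates. The None libraries together held 25 counts and the LPS libraries 4594. The fitted change was 248-fold, a log2 fold change of 7.95 with a standard error of 0.21 (edgeR adjusted p = 2.01e-11). No None library reached the filter's cutoff of 0.612 CPM by library totals, so Rgs16 was tested only because of its LPS level. By fitted log2 fold change Rgs16 ranked 40 among the rises of 11916 genes. An antisense gene, Gm28513, overlaps its end and held 0 counts in None and 12 in LPS, which is small beside the counts of Rgs16.

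Rgs2 (chromosome 1, 143999337 to 144004161) acts mainly on the Gq family and is known for its part in blood pressure control. It held 132, 149 and 148 CPM in None and 6.39, 7.26 and 11.3 CPM in LPS, with no overlap. LPS replicate 3 held the highest of the 3 low values. The log2 fold change was -4.11 with a standard error of 0.15, a 17.2-fold decrease (edgeR adjusted p = 2.29e-10). Of all genes tested, Rgs2 ranked 49 among the decreases.

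Rgs8 (chromosome 1, 153653024 to 153700323) is best known from brain. It had 0, 1 and 3 counts in None and 32, 43 and 33 in LPS. All LPS libraries lay above all None libraries, at a level of at most 1.20 TPM. The log2 fold change was 5.07 with a standard error of 0.48 (edgeR adjusted p = 1.41e-06), and leaving out 1 library moved it between 4.54 (without None replicate 1) and 6.24 (without None replicate 3, which held 3 of the 4 counts). The fold is therefore poorly fixed, since it rests on 4 counts in None.

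Rgs1 (chromosome 1, 144242295 to 144249242) limits chemokine receptor signals and migration of leukocytes. Its None libraries held 8.41, 27.1 and 26.9 CPM and its LPS libraries 16.8, 13.1 and 23.5 CPM. None replicate 1 lay far below the other None libraries, and the groups overlapped. The log2 fold change was -0.23 with a 95% interval from -0.96 to 0.50 and was not called (edgeR adjusted p = 0.562). Without None replicate 1 it was -0.60 (edgeR adjusted p = 0.0148), so 1 library decides this call. The coefficient of variation in CPM over the None libraries was 51.6% for Rgs1, against 115% for Rgs8, 33.0% for Rgs12 and 1.39% to 22.7% for the other tested RGS genes.

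Rgs3 (chromosome 4, 62559846 to 62659840) is a large gene with short and long protein forms. It held 28.7, 27.3 and 25.5 CPM in None and 27.3, 30.2 and 30.2 CPM in LPS. On this scale the groups overlapped, and the log2 fold change of 0.11, with a 95% interval from -0.09 to 0.30, was not called. On TPM the order was the other way, with 24.2, 20.2 and 20.8 in None against 18.3, 17.1 and 17.9 in LPS, and limma on log2(TPM + 1) called it lower at -0.27 with an adjusted p of 0.0288. Scaling by library totals and TPM values move all genes by a median of -0.26 and -0.20 on the log2 scale against the main scaling. Counts per TPM, a measure proportional to the transcript length assumed for the gene, were 1.16 times higher in LPS than in None for Rgs3 relative to the median of 9577 genes. The direction of Rgs3 depends on the scale.

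Rgs18 (chromosome 1, 144752682 to 144775435), known from platelets and their precursors, had 0 counts in each of the 6 libraries. A count of 0 allows up to 3 counts, which is 0.155 to 0.218 CPM in these libraries and covers counting error only.

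Rgs10 (chromosome 7, 128373620 to 128418173), a small Gi-selective protein known in microglia and macrophages, had the highest mean TPM of the 10 genes in both groups, though not the highest CPM in either. It held 90.9, 89.1 and 91.6 CPM in None and 59.2, 49.2 and 59.2 CPM in LPS. The None values had a coefficient of variation of 1.39%, and each LPS value was lower. The log2 fold change was -0.70 with a standard error of 0.08, a 1.62-fold decrease (edgeR adjusted p = 8.25e-06). On log2(TPM + 1) it was -0.94. A transcript on the same strand, Gm15503, overlaps the gene and held 19 counts in None and 10 in LPS, few beside those of Rgs10.

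Rgs14 (chromosome 13, 55369731 to 55384687) and Rgs12 (chromosome 5, 34949444 to 35033595) add Ras-binding domains and a GoLoco motif, which holds inactive Gi alpha subunits, to the RGS domain. Rgs14 held 17.4, 15.6 and 15.8 CPM in None and 5.54, 7.12 and 8.30 CPM in LPS. The groups were well apart, and the decrease of 2.33-fold (log2 fold change -1.22, standard error 0.14) was called (edgeR adjusted p = 7.84e-06). Rgs12 had 12, 20 and 11 counts in None and 1, 3 and 3 in LPS. Its log2 fold change was -2.12 with a standard error of 0.52 (edgeR adjusted p = 0.00292). Rgs12 was too low to be tested without None replicate 1 or None replicate 2, and its TPM values overlapped between groups, from 0.30 to 0.81 in None and from 0.03 to 0.33 in LPS. On log2(TPM + 1), where low genes change little by construction, it was not called (-0.37, adjusted p of 0.0656 by limma), and on log2(TPM + 0.1) it was called lower (-1.37, adjusted p of 0.041 by limma).

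Rgs19 (chromosome 2, 181688421 to 181693977) acts on Gi-family subunits and carries a cysteine string that can be lipid-modified. It held 60.0, 56.8 and 59.4 CPM in None and 47.6, 42.5 and 47.0 CPM in LPS. The decrease was small, 1.29-fold, yet larger than the spread within groups, with a log2 fold change of -0.36, a standard error of 0.07 (edgeR adjusted p = 0.000865). Its direction and call held under each other scaling tried, with values of -0.34 (RLE), -0.62 (library totals) and -0.54 (log2(TPM + 1)).

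**Figure D2:**
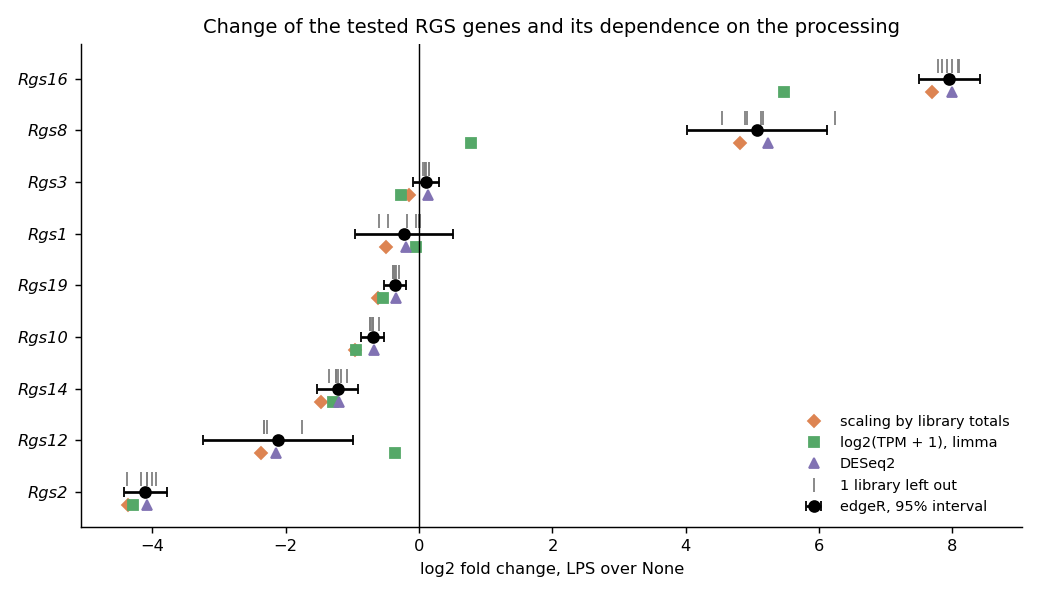
Log2 fold change of LPS over None for the 9 tested RGS genes. Black points and bars are the edgeR estimate and its 95% interval, grey ticks are fits with 1 library left out, and coloured marks are 3 other treatments of the data, of which log2(TPM + 1) shrinks genes of low level such as Rgs8 and Rgs12. Rgs3 lies on both sides of 0, and Rgs1 has an interval from -0.96 to 0.50.

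Per transcript length, the order of the genes changed below the first place. In None, Rgs10 (188 ± 3.55 TPM, SD, n = 3) stood above Rgs2 (95.9 ± 11.0), Rgs19 (69.3 ± 0.66), Rgs1 (23.8 ± 12.1), Rgs3 (21.7 ± 2.16) and Rgs14 (9.96 ± 0.71), with Rgs12, Rgs16 and Rgs8 under 1 TPM. Rgs1 and Rgs3, and Rgs12 and Rgs16, could not be ordered beyond the spread of their libraries. In LPS, Rgs10 (97.5 ± 6.73) came before Rgs16 (55.8 ± 10.8), Rgs19 (47.4 ± 1.20), Rgs1 (20.8 ± 4.94), Rgs3 (17.7 ± 0.58), Rgs2 (4.08 ± 1.44) and Rgs14 (3.52 ± 0.60). There the values of Rgs16 and Rgs19, of Rgs1 and Rgs3, and of Rgs2 and Rgs14 overlapped. Rgs2 thus went from place 2 to place 6, and Rgs16 from place 8 to place 2.

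The summed level of the 10 genes was 392, 426 and 410 TPM in None and 239, 248 and 257 TPM in LPS. All LPS sums lay under all None sums, with a ratio of 0.605 and an exact two-sided permutation p of 0.1, the smallest that 3 against 3 libraries allow. In CPM the ratio was 0.774. Rgs2 made up 23.4% ± 1.71 of the summed TPM in None and 1.63% ± 0.52 in LPS (SD, n = 3), whereas Rgs16 went from 0.0624% ± 0.01 to 22.5% ± 4.01. Rgs10 held 45.9% ± 2.35 and 39.4% ± 3.41, and Rgs19 17.0% ± 0.88 and 19.1% ± 1.05. The R12 genes summed to 198 ± 4.32 TPM in None and 101 ± 6.31 TPM in LPS, and the R4 genes to 142 ± 19.4 and 99.2 ± 11.9 TPM.

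**Figure D3:**
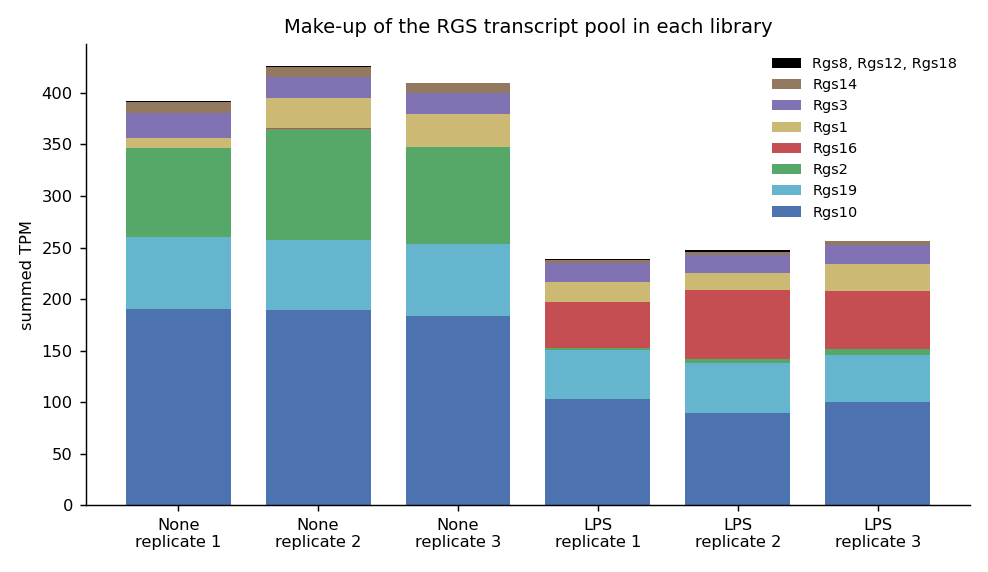
Summed TPM of the RGS genes in each library, stacked by gene. The stacks of the None libraries reach 392 to 426 TPM and those of LPS 239 to 257 TPM, with the green Rgs2 layer thin and the red Rgs16 layer present in the LPS libraries.

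Of the 21 genes named Rgs in the tables, 11 lie on chromosome 1, and 5 of these are described here. Rgs2, Rgs1 and Rgs18 lie within 776.1 kb on the minus strand, in a row with Rgs13 and Rgs21. Along that row the counts of the None and LPS groups were 8182 and 346 for Rgs2, 1 and 0 for Rgs13, 1200 and 744 for Rgs1, and 0 in both groups for Rgs21 and Rgs18. Rgs2 and Rgs1 were thus the only genes of this row with more than 1 count in a group, and Rgs1, which lies 238.1 kb from Rgs2, was not called. Rgs8 and Rgs16 lie 40.0 kb apart on the plus strand, and both rose. The nearest tested gene beyond Rgs8, Npl, 103.0 kb away, rose by 0.78, and Uchl5, 191.9 kb beyond Rgs2, rose by 0.63 on the log2 scale. Rgs14 has Grk6, a receptor kinase gene with an RGS-like domain, as a tested neighbour at 60.6 kb, and Grk6 fell by 0.81.

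By the root mean square difference of log2 CPM around each gene's own mean over the 6 libraries, the genes most like Rgs16 were Irf7 (0.15) and Rtp4 (0.21), and those most like Rgs2 were Fbxo32 (0.19) and Mxd4 (0.20). Rgs8 was nearest to Rnd1 (0.13) and Emp2 (0.22), Rgs12 to Ptpru (0.17) and Traip (0.18), and Rgs14 to Flcn (0.05) and Tmem150a (0.06). With 2 groups, genes whose changes on this scale are of similar size come out as alike. The log2 CPM values include a prior count of 2, which shrinks changes of genes with few counts. Fitted changes can differ, as for Rgs8 (5.07) beside Rnd1 (4.01) and Emp2 (3.63). Only protein-coding genes without Gm, Rik or pseudogene names were compared.

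Among the 11 remaining RGS genes, Rgs11 alone was counted well enough for the test. Rgs11, of the R7 subfamily, whose proteins need the G beta subunit Gnb5 as a partner, held 39.9, 39.8 and 38.1 CPM in None and 13.9, 18.4 and 16.4 CPM in LPS. It fell by 1.27 on the log2 scale (edgeR adjusted p = 3.6e-07), and with 40.3 TPM in None it stood above Rgs1. Rgs20 had 3 counts in None and 14 in LPS and was called higher only where no filter on low counts was used, and Rgs4, Rgs6, Rgs7, Rgs17, Rgs21 and Rgs22 had 0 counts in all 6 libraries. Proteins with an RGS-like domain under other names rose in 4 (36.4%) and fell in 6 (54.5%) of 11 tested, beside 34.0% and 35.1% of all genes tested. The receptor kinase gene Grk5 rose (log2 fold change 1.82), with the sorting nexin genes Snx13 (0.45) and Snx14 (0.40), while Grk6 (-0.81), Snx25 (-0.61) and the exchange factor gene Arhgef11 (-0.46) fell. Grk2, the most abundant of them by TPM, was not called at 0.02, and was lower at -0.23 with scaling by library totals. Scaling by library totals left 1 rise in this list, and TPM values left 2. Of 6 tested partner genes 4 rose (66.7%), Ric8a, a chaperone of alpha subunits (0.60), the GoLoco genes Gpsm1 (0.60) and Gpsm3 (0.54), and Gnb5 (0.47), while Gpsm2 (-0.13) and Ric8b (-0.17) were not called. With scaling by library totals 2 of them were higher and 2 lower.

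RGS proteins act on the alpha subunits of G proteins. Of 9 alpha subunit genes tested, 3 rose (33.3%) and 3 fell (33.3%), close to the 34.0% and 35.1% of all genes tested. The Gi subunit gene Gnai3 rose (log2 fold change 0.56), as did Gna13 (0.48) and the Gs subunit gene Gnas (0.44). Gnai2, with 496 TPM in None the most abundant of them, fell slightly (-0.23), as did Gna15 (-0.33), and Gnaq fell at -1.01. The calls of Gnai2 and Gna15 are narrow, and without None replicate 1 or without None replicate 3 only 1 alpha subunit gene was called lower, whereas with library totals 5 were. Gnaq went from 106 to 52.8 CPM but from 30.4 to 36.3 TPM, and limma did not call it on log2(TPM + 1), at 0.24. Counts per TPM of Gnaq in LPS were 0.369 of those in None relative to the median gene, a larger shift than in 99.9% of 9577 genes, and the direction of Gnaq depends on the scale. Of 10 beta and gamma genes 5 rose (50%) and 3 fell (30%), led by Gng5 (0.89), Gnb1 (0.84) and Gnb2 (0.66), while Gng7 (-0.62) and Gngt2 (-0.34) fell. The Gng7 call is narrow. DESeq2 did not make it (adjusted p = 0.0949), and with 1 library left out edgeR made it only without LPS replicate 3, with an adjusted p from 0.0537 to 0.0991 in the other 5 fits. Gnb3 had 34 counts in None and 2 in LPS, a ratio of 12.4 with an exact 95% counting interval from 3.18 to 107. Without None replicate 1, without None replicate 2 or without None replicate 3, 1 of these genes was called lower in place of 3, and with library totals 3 rose in place of 5.

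Receptors for chemokines, lipids and peptides stand upstream of the G proteins, and effectors such as adenylyl cyclases downstream. Of 22 receptor genes tested, 11 rose (50%) and 9 fell (40.9%), beside 34.0% and 35.1% of all genes tested. Fpr2, a formyl peptide receptor, Adora2a, an adenosine receptor, and Ptger2, a prostaglandin receptor, had no counts in None. Fpr2 was at least 62.5-fold higher in LPS, Adora2a at least 32.9-fold and Ptger2 at least 32.4-fold, against the floor of 3 counts over the None group. The sphingosine phosphate receptor gene S1pr1 (-5.32), the lysophosphatidic acid receptor gene Lpar5 (-4.25) and Gpr183 (-3.18) fell, as did Cx3cr1 (-1.58), the most abundant receptor by TPM. Of 11 effector genes 3 rose (27.3%) and 5 fell (45.5%), with 5 rises under RLE factors and 2 on TPM values or with library totals. The adenylyl cyclase genes Adcy3 (1.86), Adcy9 (0.91) and Adcy7 (0.36) rose, and Adcy6 (-2.73), Pik3r6, a PI3K gamma adaptor (-0.62), and Prex1 (-0.57) fell. Adcy6 and Adcy3 were weakly counted, with 57 counts in None and 6 in LPS for Adcy6 and 37 and 99 for Adcy3. Of the arrestin genes, whose products silence activated receptors, Arrb1 fell by 1.18 and Arrb2 was not called at 0.12. The median log2 fold change was -0.29 for the RGS-like domain genes, 0.50 for the RGS partner genes, 0.01 for alpha subunits, 0.03 for beta and gamma subunits, -0.15 for effectors and 0.24 for receptors, beside -0.36 for the 9 RGS genes and -0.03 for all genes tested.

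**Figure D4:**
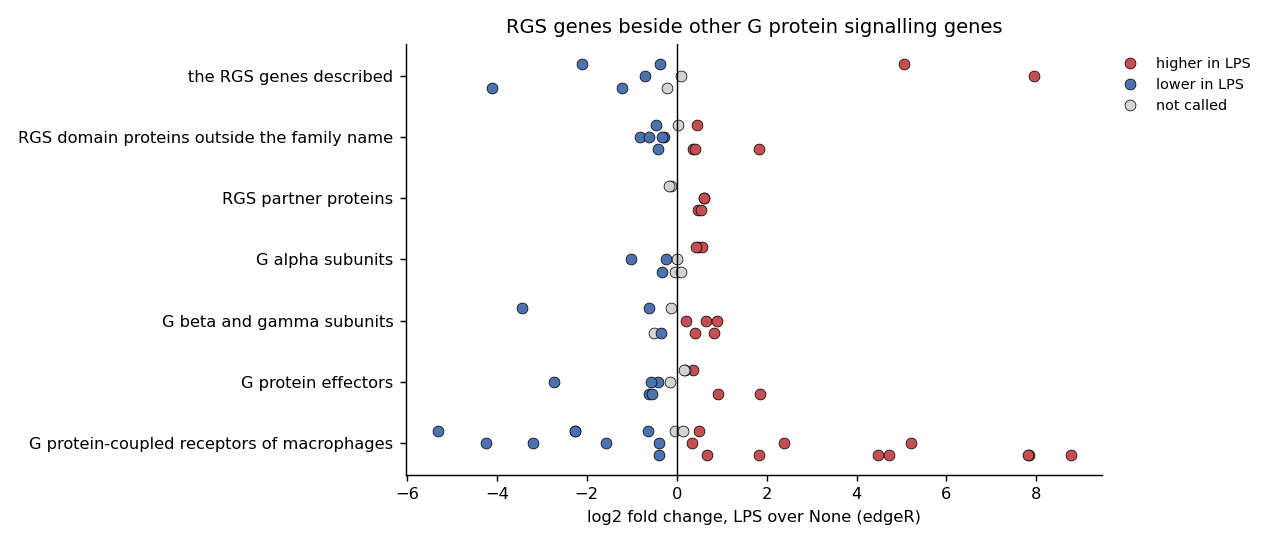
Log2 fold change of LPS over None by edgeR for each tested gene, in rows by gene list, with red for called higher, blue for called lower and grey for not called. Rgs16 at 7.95 and Rgs2 at -4.11 lie at the ends of the top row. The alpha subunits in the same plot stay between -1.01 and 0.56, and the receptors run wider, from -5.32 (S1pr1) to 8.76 (Fpr2). The vertical offset within a row carries no value, and points of Fpr2, Adora2a and Ptger2 have no counts in None, so that their place is set by the prior count.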

How the data were processed

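RNA of RAW-Blue cells was sequenced from both ends, and reads were filtered with SOAPnuke, per the labels' protocols. GRCm38, RSEM 1.3.1 and STAR 2.7.10a are listed in the submitters' processing notes. The deposited tables hold expected counts, which the authors estimated and which need not be whole, and TPM values, which the authors scaled for transcript length. The annotation release, the strand setting and any selection of polyadenylated RNA are not given in the sources used here. Each table covers 50600 genes. Of 18 library columns, 6 carry names that fit the None or LPS titles, with None written as Non in the column names. Another 12 fit no title and were left out, and LPS-PjELNs has no matched column and is not analysed here.

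Expected counts were rounded. Genes were kept by filterByExpr (count minimum 10, total 15), which left 11916, and 530 genes without a symbol were kept under their identifiers (at most 0.0318% of a library). Libraries were scaled by TMM and tested two-sided with edgeR 4.0.16 (glmQLFit, glmQLFTest) in R 4.3.3, with group as the single term, Benjamini-Hochberg adjustment over all genes tested and a threshold of 0.05. A gene past it is written as called. Standard errors are the log2 fold change divided by the square root of its F statistic. CPM values use TMM-scaled library sizes. Errors are SDs over 3 libraries. Where a group had 0 counts, folds use a floor of 3 counts over the group. Alternatives were RLE factors, DESeq2 1.42.0, other filters, scaling by library totals, TPM values with limma 3.58.1 (pseudocounts 1 and 0.1), a replicate block and leaving out each library. The members, the 10 other lists and the rules were chosen with earlier results of these data known. Named genes are the 10 RGS genes, up to 3 called rises and 3 called falls of each list with its highest gene by TPM, and the 2 genes most like each RGS gene that changed at least 2-fold. Other named genes were chosen after their values were seen. Promoter windows are those of RefSeq (GRCm38.p6), and the motifs were chosen after the sequences had been seen.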

Additional observations from a re-analysis of the deposited data

How the results depend on the processing

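Replicate numbers gave no pairing: same-numbered None and LPS libraries correlated in their deviations from the group means at 0.08, -0.02 and 0.01, and only number 1 correlated best with its own number in both groups. With the replicate number as a block, 4114 genes were higher and 4248 lower instead of 4052 and 4180, and the RGS genes stayed at 2 higher and 5 lower. The 2 rises, of Rgs16 and Rgs8, held under all alternatives run. Both genes passed the filter only through LPS, so in filtered fits this outcome was largely set in advance and adds no support. The number of RGS genes lower ran from 4 to 6, or 4 to 5 when a single library was left out. The genes behind that number changed. Without None replicate 1, Rgs1 was called lower and Rgs12 was not tested. On log2(TPM + 1), Rgs3 was called lower and Rgs12 was not. With library totals alone, 2679 genes were higher. That setting left 1 rise among RGS-like domain genes, 2 rises and 2 falls among RGS partner genes, 5 falls among alpha subunits, 3 rises among beta and gamma subunits and 2 rises among effectors, and Grk2 turned to -0.23. On TPM values with limma, RGS-like domain genes had 2 rises under all 3 settings. RGS partner genes had 2 falls with either pseudocount, and 2 rises without a filter. Effectors had 2 rises, and alpha subunits 5 falls without a filter. Rgs3 turned to -0.27 (also without a filter) and -0.29 with a pseudocount of 0.1, and Gnaq to 0.24 and 0.25. RLE factors gave 5 rises among effectors, and no filter 1 rise among the other RGS genes. Leaving out a library gave 1 to 3 falls among alpha subunits and 1 to 4 among beta and gamma subunits. The summed level had a ratio of 0.774 in CPM and 0.593 to 0.618 in TPM with a library left out. The cause of these shifts was not tested. Rgs8 and Rgs12 had few counts and Rgs18 none, and whether deeper sequencing would change their results was not tested.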
